A study of Homo sapiens with 9 samples.

Results

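These measurements describe SKMEL-147 cells carrying the CRISPR guide sgPHF8-3 against the same cells carrying the scrambled guide sgScr, read as RNA counts per gene across the whole transcriptome. SKMEL-147 is an established human melanoma cell line, and the study asked what the histone demethylase PHF8 does in melanoma invasion and metastasis. The comparison takes every library labelled with either guide, 3 sgPHF8-3 libraries and 3 sgScr libraries, which is 6 of the 9 libraries in the series. The remaining 3 libraries carry a different PHF8 guide, sgPHF8-1, and are used only to show where the 2 guides differ. According to the study's methods, the cells stably expressed Cas9 from a lentivirus under blasticidin selection, and each guide was delivered by a second lentivirus that also encodes green fluorescent protein, so the controls too carry Cas9 and GFP. Each group is a transduced population and not a clone, and the share of edited cells was not measured here. The interval between infection and RNA extraction is not given in the sources used here. The libraries lettered A, B and C are described as biological replicates.

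PHF8 is a Jumonji-domain histone demethylase. Its PHD finger binds trimethylated lysine 4 of histone H3, a mark of active promoters, and its catalytic domain removes methyl groups from lysine 9 and lysine 27 of histone H3 and from lysine 20 of histone H4. PHF2 and KDM7A are its closest relatives and share the same domain order. In melanoma, TGF-beta signaling runs from secreted latent ligands through the TGFBR2 and TGFBR1 receptors to the SMAD transcription factors, and it is known for its links to matrix remodeling and invasion.

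The guide sequences are shown because the sites they match separate the 2 guides. Each is written 5' to 3' as the 20 bases of the genomic site on the strand that the guide reads, followed by the 3 bases of the PAM in capitals. A capital inside the 20 bases marks a base that differs from the guide.
sgPHF8-3 in PHF8: tcctcctgagcctaaacaagAGG
sgPHF8-1 in PHF8: gtcacactcgatcatgaagcGGG
sgPHF8-1 in PHF2: gtcGcactcgatcatgaagcGGG
The sgPHF8-3 site lies in PHF8 (ENSG00000172943) at chrX:53966772-53966791 of GRCh37 on the minus strand, inside coding exon 21 of the 22 exons of the canonical transcript. The expected cut falls after coding base 2824 of 3072, at codon 942 of 1024, with 91.9% of the coding sequence before it. The PHD finger and the Jumonji domain are both encoded upstream of this position. Of 15 PHF8 transcripts annotated as coding, 4 contain the site in their coding sequence. No other site with an NGG PAM and up to 2 mismatches to sgPHF8-3 was found in the genome, and none of the 7 sites with 3 mismatches lies in a coding exon. Within the PHF2 gene the closest match of sgPHF8-3 beside an NGG had 6 mismatches, and within KDM7A it had 8. The sgPHF8-1 site lies much earlier in PHF8, at chrX:54069090-54069109 in exon 2, after 55 coding bases. This guide has a second site with 1 mismatch in coding exon 1 of PHF2 at chr9:96339108-96339127, where the substitution is A4G, counted from 1 at the 5' end of the guide.

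Library totals ranged from 17366120 to 19838142 counts, and the sgScr libraries were slightly deeper (19446946 to 19838142) than the sgPHF8-3 libraries (17366120 to 19019118). Between libraries of one group, the mean squared difference per gene was 1.31 to 1.54 times sampling noise for sgScr and 1.57 to 3.01 times for sgPHF8-3, so no pair was identical and p-values here measure a small spread. Libraries A and C of sgPHF8-3 were the pair farthest apart within these 2 groups. Of 8 melanoma markers, SOX10, the neural crest transcription factor, was at 149 CPM and MITF, the melanocyte master regulator, at 13.6 CPM in sgScr, while the pigment genes MLANA and TYR were at 0 in all 9 libraries and PMEL, DCT, TYRP1 and S100B were each below 1 CPM. Levels are given throughout in CPM, a gene's count relative to the TMM-scaled total of its library. The summed level of 12 immune markers was 1.38 to 2.07 CPM in sgScr and 1.37 to 2.48 CPM in sgPHF8-3, with 5 and 6 of them at 0. The 12 epithelial markers summed to 272 to 288 CPM in sgScr and 268 to 278 CPM in sgPHF8-3, above the melanoma markers at 160 to 167 and 152 to 156 CPM. Most of the epithelial sum came from KRT18, DSP and CLDN4 (105, 96.8 and 68.8 CPM in sgScr), while the defining markers EPCAM and CDH1 were at or near 0. With sgPHF8-3, KRT18 rose by 0.20 and SOX10 fell by 0.11, both called. DSP, KRT14 and CLDN4 had log2 fold changes of -0.21, -0.90 and -0.12, all called. KRT14 was at a mean of 2.16 CPM in sgScr and 1.16 CPM in sgPHF8-3. CLDN4 lost its call with DESeq2 and without sgPHF8-3 B, sgPHF8-3 C, sgScr A or sgScr B. Of these 3 epithelial falls DESeq2 called 1 and gave no adjusted p for 1. ITGAM was the only immune marker tested, at a mean of 0.422 CPM in sgScr and 0.909 CPM in sgPHF8-3, and its call (1.11) was lost without sgPHF8-3 A, sgScr A or sgScr C. Endothelial markers summed to 8.34 to 10.6 CPM in sgScr and 8.62 to 10.2 CPM in sgPHF8-3.

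PHF8 itself was measured first. In sgScr its level was 35.3, 32.7 and 34.2 CPM in libraries A, B and C, and in sgPHF8-3 it was 21.5, 20.9 and 23.5 CPM, so every sgPHF8-3 library lay below every control. In a pool of cells, fewer cells that make a transcript and less of it in each cell cannot be told apart, here or at any gene below. The log2 fold change was -0.63 with an SE of 0.06, a level of 0.644 of control (adjusted p = 1.9e-12). Fold changes, SEs and adjusted p-values come from edgeR's quasi-likelihood test with Benjamini-Hochberg adjustment over all genes tested, and a gene is said to have risen or fallen when its adjusted p was below 0.05. Counts over the gene do not show what share of the PHF8 transcripts was edited.

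PHF2 transcripts were not called different with sgPHF8-3. Their level was 71.8, 78.0 and 77.2 CPM in sgScr and 76.5, 74.1 and 71.7 CPM in sgPHF8-3, and the 2 groups overlapped. The log2 fold change was -0.03 with an SE of 0.04 (adjusted p = 0.64). With sgPHF8-1, in contrast, PHF2 was at 38.8, 39.0 and 42.4 CPM, and the direct contrast of the 2 guides gave a log2 difference of 0.89 (adjusted p = 2.8e-18). PHF8 showed the opposite order, since it was at 30.5, 30.7 and 30.6 CPM with sgPHF8-1 and lower with sgPHF8-3 by a log2 difference of -0.48 (adjusted p = 1.7e-07). KDM7A stayed between 4.27 and 5.53 CPM in all 9 libraries, and its log2 fold change with sgPHF8-3 was 0.12 with an SE of 0.13 (adjusted p = 0.55). Of 21 Jumonji and LSD1-family demethylases tested, PHF8, KDM4B and KDM4A fell and none rose, beside 11.8% of all genes tested that fell and 11.9% that rose. KDM4B and KDM4A, which act on lysine 9 of histone H3, had log2 fold changes of -0.25 and -0.12, and the call for KDM4A did not hold without sgPHF8-3 A, sgScr B or sgScr C (adjusted p up to 0.13).

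**Figure D1:**
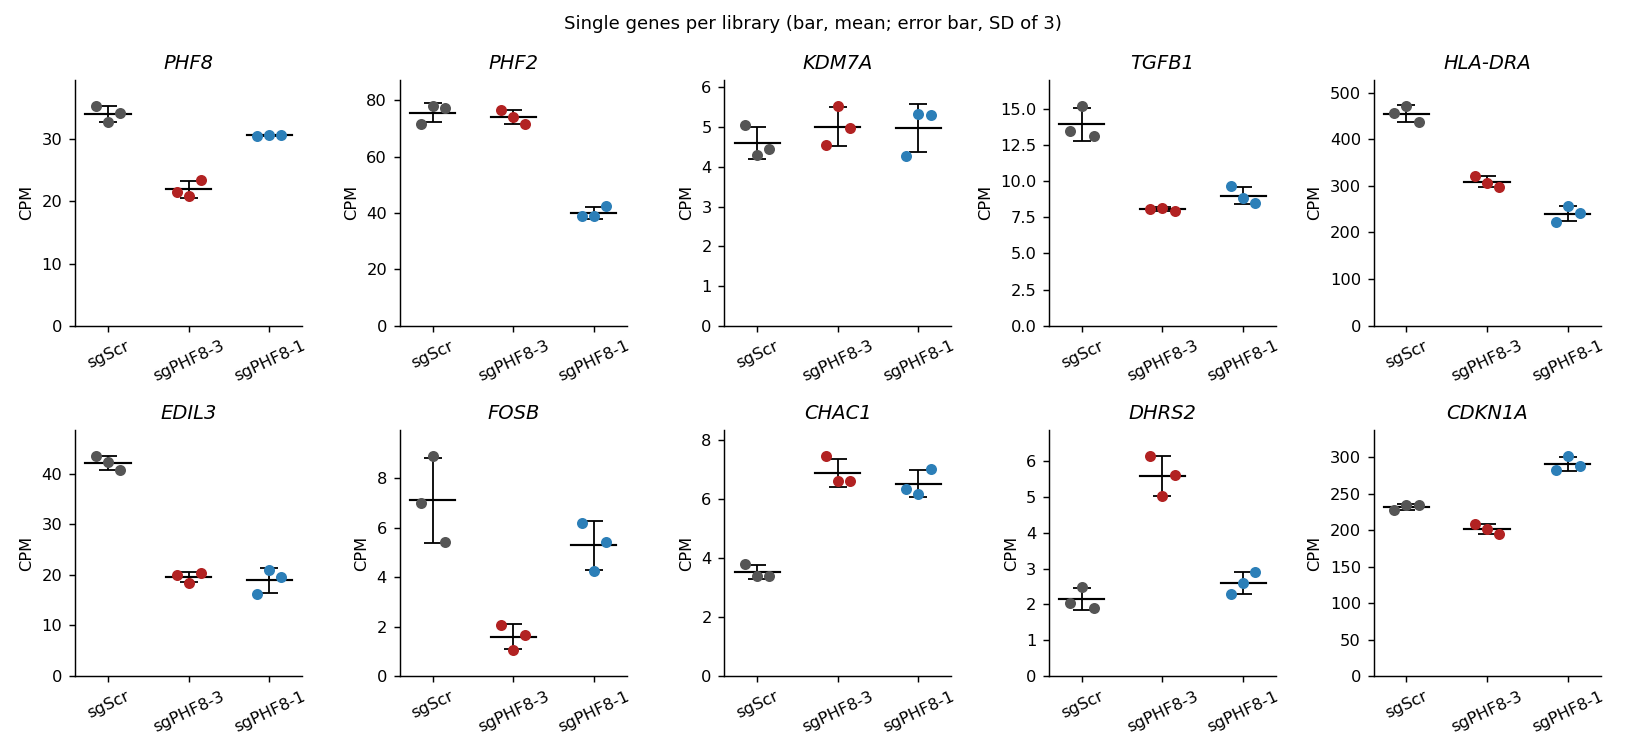
Level in CPM of 10 genes in each library of sgScr (grey), sgPHF8-3 (red) and sgPHF8-1 (blue); the bar is the mean and the error bar the SD of 3 libraries, and each axis starts at 0. PHF8 is lowest in sgPHF8-3, PHF2 is lower in sgPHF8-1 only, and DHRS2 is high in sgPHF8-3 only.

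Across the transcriptome the response was broad and shallow. Of 14382 genes tested, 1715 rose and 1693 fell, which is 11.9% and 11.8% and together 23.7%. The median absolute log2 fold change of the called genes was 0.18, a factor of 1.14. Of the called genes, 705 fell by more than 0.25 on the log2 scale and 342 rose by more than that. Beyond 0.5 the counts were 210 falls and 136 rises, and beyond 1 they were 35 falls and 36 rises. The median log2 fold change over all genes tested was -0.00045, so list medians can be read against a value of about 0. DESeq2 called 848 genes up and 896 down, and 1739 of its 1744 calls were also called by edgeR, all in the same direction. No gene list below was tested as a set, and the counts are a description to be set beside the shares for all genes.

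**Figure D2:**
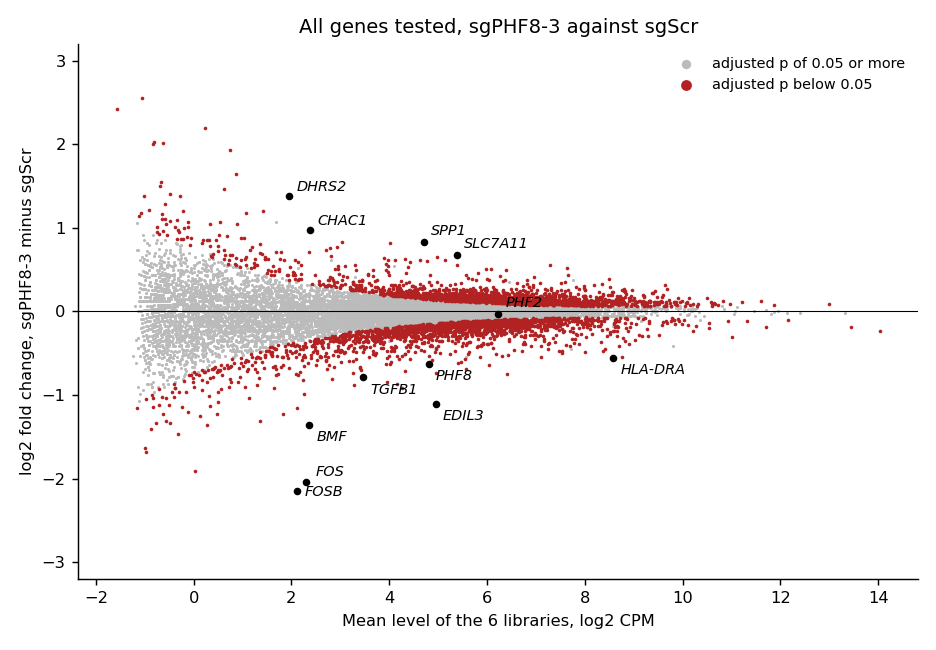
Each point is one of the 14382 genes tested, with the mean level of the 6 libraries (log2 CPM) on the horizontal axis and the log2 fold change of sgPHF8-3 against sgScr on the vertical axis; red points have an adjusted p below 0.05. The 1715 called rises and 1693 called falls lie on both sides of 0, and more of the falls than of the rises lie beyond 0.25 (705 against 342).

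Among genes with a mean of at least 5 CPM in the higher group, the 12 largest falls included immediate-early, neural and matrix genes. FOSB and FOS, AP-1 subunits induced within minutes of stimulation, fell furthest. FOSB was at 7.01, 8.89 and 5.43 CPM in sgScr and at 2.06, 1.05 and 1.66 CPM in sgPHF8-3, a log2 fold change of -2.15 with an SE of 0.22 (adjusted p = 2.1e-06). FOS was at 9.52, 8.89 and 5.43 CPM against 1.95, 1.66 and 2.17 CPM (log2 fold change -2.04, SE 0.24, adjusted p = 7e-05). The control libraries spread widely for both genes, but none reached as low as the highest sgPHF8-3 library. BMF, a proapoptotic BH3-only protein, fell from 8.61, 6.82 and 6.87 CPM to 3.27, 2.38 and 3.03 CPM, a level of 0.39 of control. Of 19 BCL2 family genes tested, 3 fell and 5 rose, among them BID (0.35) and PMAIP1 (0.20). Rises in this family were 3 without sgPHF8-3 B, sgScr A or sgScr C. EDIL3, a secreted integrin ligand of the matrix, was at 43.4, 42.4 and 40.7 CPM in sgScr and at 19.9, 18.4 and 20.4 CPM in sgPHF8-3 (log2 fold change -1.11, SE 0.06, adjusted p = 5.2e-21). COL9A3, a chain of collagen IX, fell by 1.16 on the log2 scale. LSAMP, a neural cell adhesion protein, fell by 0.87, and CELSR2, an atypical cadherin of planar cell polarity, by 0.84. HLA-DQA1, the alpha chain of an MHC class II molecule, fell by 0.92. This group also held the noncoding RNAs SLCO4A1-AS1 (-1.23) and MIR3142HG (-0.88) and IFITM10 (-0.82). The strand setting of the counting is not given in the sources used here, so reads of SLCO4A1-AS1 and of SLCO4A1, which it overlaps, cannot be told apart.

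At the same minimum level of 5 CPM, DHRS2 rose most, and genes below it, such as MMP3 (4.01-fold), are not ranked here. DHRS2, a short-chain dehydrogenase, was at 2.05, 2.48 and 1.90 CPM in sgScr and at 6.13, 5.03 and 5.60 CPM in sgPHF8-3, a 2.6-fold rise (log2 fold change 1.38, SE 0.15, adjusted p = 4.2e-10). CHAC1, an enzyme that degrades glutathione, rose from 3.81, 3.39 and 3.38 CPM to 7.45, 6.63 and 6.62 CPM, a 1.96-fold rise. SPP1, which encodes the secreted phosphoprotein osteopontin, rose from 19.1, 17.7 and 19.8 CPM to 33.1, 32.8 and 35.0 CPM (1.78-fold, adjusted p = 7e-16). ANKRD1, a nuclear cofactor and well-known YAP target, rose 1.76-fold, and ABCC9, a regulatory subunit of potassium channels, rose 1.77-fold. The long noncoding RNA UCA1 rose 1.71-fold, COL17A1, a hemidesmosomal collagen, 1.7-fold, and PLA2G4C, a phospholipase, 1.58-fold. The remaining 4 of the 12, ATF3, ALDH1L2, SLC7A11 and ASNS, are members of the ATF4 list described below, as is CHAC1. In all 24 genes chosen for the largest rises and falls the 3 sgPHF8-3 libraries lay wholly on one side of the 3 controls, because the rule that chose them required it.

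Genes of the TGF-beta pathway were lower at the level of ligand, latency proteins and receptor. Of 12 ligands, latency proteins and receptors tested, 6 fell and none rose, with a median log2 fold change of -0.23. TGFB1 (chr19:41807492-41859827), the ligand TGF-beta 1, was at 13.5, 15.2 and 13.1 CPM in sgScr and at 8.08, 8.18 and 7.94 CPM in sgPHF8-3. The groups did not overlap, and the level was 0.579 of control (log2 fold change -0.79, SE 0.09, adjusted p = 8.9e-10). The other ligands were not called: TGFB2 had a log2 fold change of -0.04 and TGFB3 -0.40 (adjusted p = 0.60 and 0.12). All 4 latent TGF-beta binding proteins, which hold the ligand in the matrix, fell. LTBP3 was at 121, 124 and 123 CPM against 84.0, 90.2 and 90.4 CPM (log2 fold change -0.48, SE 0.03), and LTBP4, LTBP1 and LTBP2 fell by 0.44, 0.28 and 0.18. The call for LTBP4 did not hold with DESeq2 (adjusted p = 0.052).

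Among the receptors, TGFBR1 fell and TGFBR2 was not called. TGFBR1, the type I receptor kinase, was at 240, 248 and 252 CPM in sgScr and at 193, 198 and 199 CPM in sgPHF8-3 (log2 fold change -0.33, SE 0.03, adjusted p = 3.1e-13). TGFBR2, the type II receptor, was at 89.4, 88.6 and 84.3 CPM against 81.4, 83.5 and 86.2 CPM, and the groups overlapped (log2 fold change -0.06, adjusted p = 0.21). Of 16 SMADs and their regulators, 4 fell and 1 rose. SMAD3, a receptor-activated SMAD, fell by 0.29 (adjusted p = 1.1e-10) and PMEPA1, an inhibitor of SMAD activation that is itself induced by the pathway, by 0.42, from 473, 488 and 474 CPM to 366, 356 and 350 CPM. SMAD2 (-0.09, adjusted p = 0.021), the corepressor TGIF1 (-0.14, adjusted p = 0.036) and the ubiquitin ligase SMURF2 (0.08, adjusted p = 0.028) were called by a small margin. Each of these 3 calls was lost when a single library was left out, with the adjusted p reaching 0.099, 0.11 and 0.12, and with DESeq2 (adjusted p 0.082, 0.19 and 0.084). SMAD4, the common partner SMAD, had a log2 fold change of -0.09 (adjusted p = 0.10), and without sgScr C it passed the threshold (adjusted p = 0.026).

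Response genes of TGF-beta, some induced and some, such as the ID genes, repressed or induced depending on the cell, did not move one way. Of 20 tested, 5 fell and 2 rose, with a median of -0.02. TGFBI, a matrix protein induced by the pathway, fell from 2252, 2364 and 2278 CPM to 1870, 1860 and 1830 CPM (log2 fold change -0.31, SE 0.03, adjusted p = 1e-13). FN1, the matrix protein fibronectin, fell by 0.14, and BHLHE40, a circadian repressor, by 0.31. CCN2, a matricellular growth factor, rose from 99.7, 98.0 and 94.8 CPM to 123, 126 and 131 CPM (log2 fold change 0.38), and LOX, which crosslinks collagen, rose by 0.27. The inhibitors of differentiation ID1 and ID2 were not called: ID1 was at 155, 159 and 162 CPM against 154, 160 and 148 CPM (log2 fold change -0.04, adjusted p = 0.33), and ID2 had a log2 fold change of -0.07 (adjusted p = 0.53). ID3 was called lower (-0.13, adjusted p = 0.021), but not without sgPHF8-3 A, sgPHF8-3 C or sgScr A (adjusted p up to 0.068).

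Matrix and adhesion genes moved in both directions, with more falls than rises in most of these lists. Of 13 integrins, 5 fell and 2 rose, and both rises were lost without sgScr A or sgScr C and 1 of them without any other library. ITGB8, which activates latent TGF-beta as an alpha-v partner, was at 491, 511 and 515 CPM against 392, 391 and 409 CPM (log2 fold change -0.35, SE 0.03), and ITGA3, a laminin receptor chain, fell by 0.23. Of 13 matrix metalloproteinases and TIMPs, 6 fell and 1 rose: MMP14, a membrane collagenase, fell by 0.34, MMP2, the gelatinase it activates, by 0.51, and the inhibitors TIMP3 and TIMP2 by 0.47 and 0.27. MMP3, the stromelysin that rose, was close to the detection limit, at a mean of 0.22 CPM in sgScr and 0.9 CPM in sgPHF8-3. It passed the filter on low counts only through the sgPHF8-3 libraries, so its call depends on the group where it is high. DESeq2 gave MMP3 no adjusted p at this level. Of 19 collagens 7 fell and 1 rose, 2 rose without sgPHF8-3 A, and COL18A1, the precursor of endostatin, fell by 0.39. Of 25 matricellular and matrix-linking proteins 12 fell and 6 rose, among them THBS2, an antiangiogenic thrombospondin, which fell by 0.53. Laminins, the basement membrane proteins, had a median of 0.20, and of 10 tested 2 rose, among them LAMB3 (0.34), and 3 fell. Of 8 genes of the plasminogen system 3 rose and 2 fell, with 1 fall left without sgPHF8-3 B or any 1 of the sgScr libraries. Of 23 ADAM and ADAMTS metalloproteases 5 rose and 7 fell, with 3 falls left without sgPHF8-3 B and 3 rises without sgScr B or sgScr C. The summed level of 9 fibroblast markers was 20.5 to 23.2 CPM in sgScr and 17.6 to 20.1 CPM in sgPHF8-3, with 7 of the 9 under 1 CPM, the defining markers COL1A2, COL3A1 and PDGFRA among them, and DCN at 0. LUM, which makes up most of this sum, had a log2 fold change of -0.25 (adjusted p = 0.014), not called without sgPHF8-3 B or sgScr A. Among 43 axon guidance genes 16 fell and 1 rose, with the semaphorin coreceptors NRP2 and NRP1 at -0.37 and -0.28 and the semaphorin SEMA3B at -0.44. DESeq2 called 10 falls in this list, with no adjusted p for 2 of the 16, and the 1 rise, SEMA3D, lost its call without sgPHF8-3 B, sgScr A or sgScr B, while 2 rose without sgPHF8-3 C. Of 26 cadherins and genes of neural cell adhesion, 8 fell and 4 rose. L1CAM, a neural adhesion molecule, fell from 217, 229 and 207 CPM to 151, 155 and 154 CPM (log2 fold change -0.50, adjusted p = 5.1e-18). In the same list ALCAM rose by 0.24 (adjusted p = 6.5e-10), and PCDH7 rose from a mean of 0.523 CPM to 1.21 CPM. The other rises were NFASC, not called without sgScr B, and NEGR1, not called without sgPHF8-3 B, sgScr A or sgScr C. Of 16 Notch pathway genes 7 fell and none rose, including the ligand JAG1 (-0.26) and the receptor NOTCH2 (-0.15). Of 24 genes of the dedifferentiated, invasive melanoma state, 6 fell and 5 rose, with 2 rises left without sgPHF8-3 B or sgScr C and 3 without sgScr A or sgScr B. NGFR, the nerve growth factor receptor, fell by 0.29 and NES, the intermediate filament nestin, by 0.30, whereas NRG1, a ligand of ERBB receptors, rose by 0.43.

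**Figure D3:**
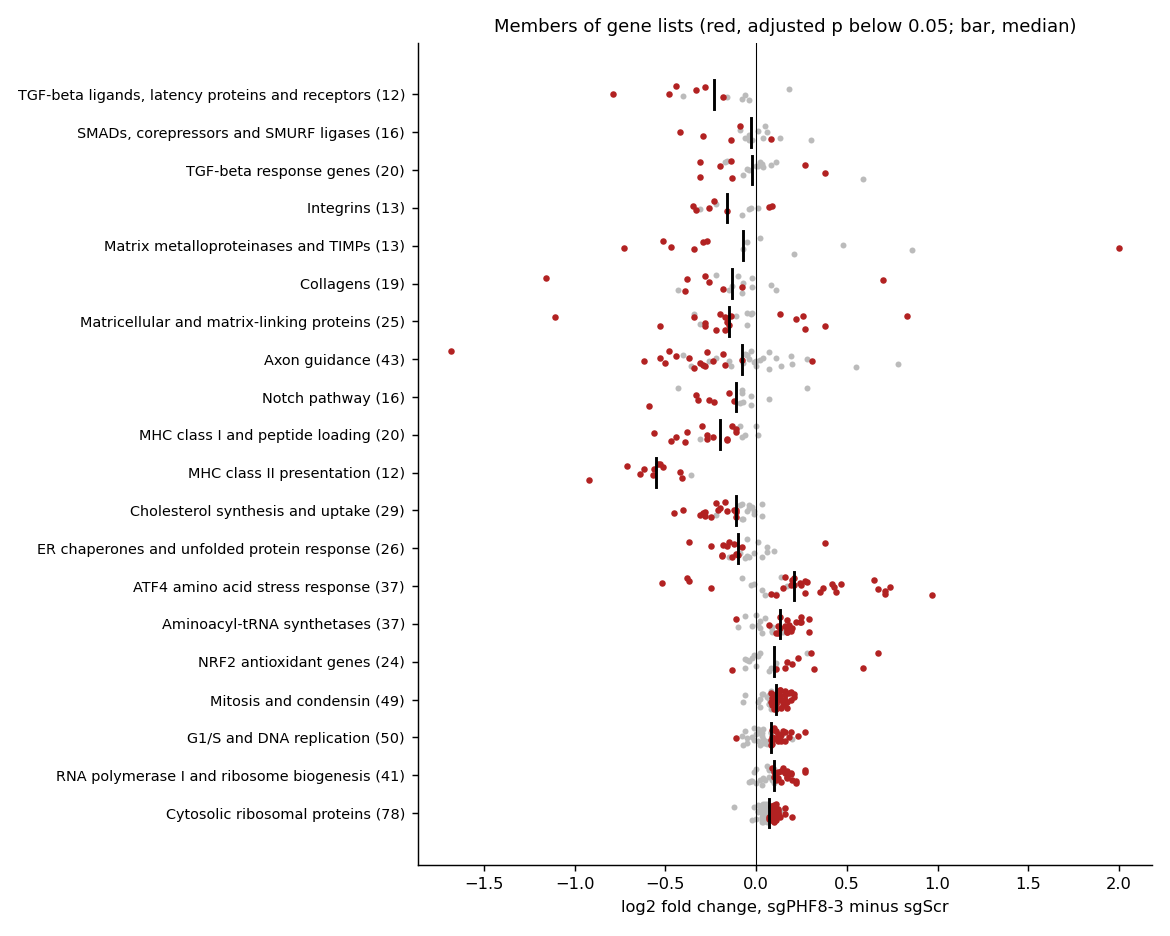
Log2 fold change of sgPHF8-3 against sgScr for the tested members of 20 gene lists, with the number tested in parentheses; red points have an adjusted p below 0.05 and the black bar is the median of the list. The median lies furthest below 0 for MHC class II and furthest above 0 for the ATF4 list.

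MHC class II was the list with the largest share of called members among those with 10 or more genes tested. All 12 genes tested had a log2 fold change below 0, and 11 fell, by 0.41 to 0.92, with a median of -0.55. HLA-DRA, the alpha chain of HLA-DR, was at 457, 471 and 436 CPM in sgScr and at 322, 307 and 298 CPM in sgPHF8-3 (log2 fold change -0.56, SE 0.03, adjusted p = 2.7e-19). HLA-DPB1 was at 78.7, 84.9 and 75.9 CPM against 54.1, 49.1 and 50.1 CPM, a level of 0.641 of control. CIITA, the transactivator that switches on class II genes, fell by 0.51, CD74, the invariant chain, by 0.54, and the peptide-loading subunits HLA-DMA and HLA-DMB by 0.62 and 0.71. The only member not called was HLA-DRB5 (log2 fold change -0.36), whose reads are hard to separate from those of HLA-DRB1.

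MHC class I genes moved in the same direction by smaller amounts. Of 20 class I and peptide-loading genes tested, 14 fell and none rose, with a median of -0.20. HLA-B was at 215, 227 and 207 CPM against 161, 154 and 155 CPM (log2 fold change -0.47, SE 0.03), and HLA-C fell by 0.27. The class I genes share long stretches of sequence, so their reads may be split between them. Genes of the loading machinery fell too: the tapasin gene TAPBP by 0.38, the peptide transporter TAP1 by 0.39, the immunoproteasome subunit PSMB9 by 0.44 and B2M, the class I light chain, by 0.16. TAP2 (0.01) and NLRC5 (-0.00), the transactivator of class I, were not called. Of 37 interferon-stimulated genes 7 fell and 2 rose, a share of called genes of 24.3% beside 23.7% over all genes, and without sgScr B only 3 fell and 1 rose. Of 19 cytokines and chemokines 7 fell and 3 rose, with IL1B, an inflammatory interleukin, lower by 0.40 and IL24, a cytokine of the interleukin 10 family, higher by 0.29.

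Genes of the amino acid stress response were higher. ATF4 is a transcription factor whose translation increases when amino acids are short or the endoplasmic reticulum is stressed, and its targets make, import and charge amino acids. Of 37 genes of the ATF4 list, 25 rose and 4 fell, with a median of 0.21. ATF4 itself rose by 0.27. SLC7A11, the cystine transporter, was at 33.2, 32.4 and 30.7 CPM in sgScr and at 47.6, 49.4 and 56.4 CPM in sgPHF8-3 (log2 fold change 0.67, SE 0.05, adjusted p = 4.2e-13). ASNS, asparagine synthetase, was at 24.1, 22.7 and 26.5 CPM against 40.9, 36.1 and 38 CPM (log2 fold change 0.65, SE 0.06, adjusted p = 7.9e-13). MTHFD2, a mitochondrial folate enzyme, was at 170 CPM in each control library and at 219, 215 and 217 CPM in sgPHF8-3. SLC3A2, the heavy chain of amino acid transporters, rose by 0.44 and TRIB3, a pseudokinase that restrains ATF4, by 0.42. ATF3, a stress-induced bZIP factor, rose by 0.74, ALDH1L2, a mitochondrial folate dehydrogenase, by 0.71, and DDIT3, the proapoptotic factor CHOP, by 0.47.

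The 4 members that fell were DDIT4, an inhibitor of mTORC1 (-0.52), SLC7A5, a leucine transporter (-0.37), VEGFA, a vascular growth factor (-0.38), and KLHL24, a ubiquitin ligase adaptor (-0.25). DDIT4 and VEGFA are also known hypoxia-responsive genes. Of 37 aminoacyl-tRNA synthetases, which load transfer RNAs, 21 rose and 1 fell. GARS1, SARS1, YARS1 and IARS1 rose by 0.29, 0.29, 0.25 and 0.22, and the one that fell was IARS2 (-0.11), a mitochondrial enzyme. Chaperones of the endoplasmic reticulum did not share this direction: of 26 genes of the unfolded protein response, 12 fell and 1 rose. HSPA5, the main chaperone BiP, fell from 412, 445 and 430 CPM to 388, 377 and 374 CPM (log2 fold change -0.18), and PDIA4, a disulfide isomerase, fell by 0.19. The gene that rose was XBP1 (0.38), a transcription factor of the same response.

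The sequence at the starts of these genes was looked at for the ATF4-type element TGATGNAA, on both strands, in RefSeq promoters of build GRCh38.p14 that run from 250 bases before to 50 bases after each start. The list was drawn up from known targets of ATF4, so a high share follows in part from its choice. Of 53 promoters found for 31 of the 37 genes, 12 held the letters, a share of 22.6%, and of 39 promoters of 30 synthetases 8 did, 20.5%. Among all 15273 promoters of genes tested, 320 did, a share of 2.1%. Of the 10 genes of the ATF4 list with a match, 9 rose, beside 25 of all 37. Stretches around the match are shown for CHAC1, ASNS and ATF3, in the direction of transcription with the match in capitals. They are the members of the ATF4 list with a match among the 12 genes with the largest rises. Genes of those 12 outside the list were not looked at one by one.
CHAC1: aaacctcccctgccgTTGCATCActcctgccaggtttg
ASNS: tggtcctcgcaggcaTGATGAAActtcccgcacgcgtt
ATF3: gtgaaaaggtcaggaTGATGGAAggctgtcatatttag
The CHAC1 stretch lies at chr15:40953247-40953284 on the plus strand with the match reading on the opposite strand and beginning 209 bases before the start. The ASNS stretch lies at chr7:97872454-97872491 on the minus strand with its match beginning 68 bases before the start, and the ATF3 stretch at chr1:212565201-212565238 on the plus strand with its match 191 bases before it. A match is a run of letters and not a measured binding site.

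Many genes of cell division had small called rises. Of 49 genes of mitosis and condensin, 31 rose and none fell, with a median of 0.11 and called rises of 0.08 to 0.21. CENPE, a kinetochore motor, was at 219, 208 and 216 CPM in sgScr and at 238, 246 and 259 CPM in sgPHF8-3 (log2 fold change 0.21, SE 0.03, adjusted p = 2.9e-07). NCAPG, a condensin subunit, was at 178, 179 and 177 CPM against 202, 200 and 201 CPM, and TTK, a spindle checkpoint kinase, rose by 0.19. MKI67, the proliferation marker Ki-67, was at 383, 364 and 358 CPM against 306, 349 and 408 CPM, with a wide spread among the sgPHF8-3 libraries, and was not called (-0.06, adjusted p = 0.79). Of 50 genes of G1/S and DNA replication, 22 rose and 1 fell, including the phosphatase CDC25A (0.27) and ORC1, a subunit of the origin recognition complex (0.23), and the one that fell was CCND1, cyclin D1 (-0.11). The count of rises dropped to 13 without sgPHF8-3 B, and to 14 without sgScr A or without sgScr B, and DESeq2 called 12 rises. Falls were 2 without sgPHF8-3 C or sgScr B. Of 28 clustered histone genes tested, 17 rose and none fell, among them H4C3 (0.21), but only 30 of the 60 genes listed could be matched to a symbol. Histone transcripts mostly lack a poly(A) tail and are kept by the ribosomal RNA depletion used here, and near-identical copies may share reads. The CHR letters TTTGAA, known from promoters of mitotic genes, were present in 33 of 54 promoters of the mitosis list (61.1%) and in 1651 of the 15273 (10.8%). This list, too, was drawn from known mitotic genes. Of its 30 genes with a match 17 rose, beside 31 of all 49.

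Ribosomal proteins form the subunits that translate messenger RNA. Of 78 cytosolic ribosomal protein genes 33 rose and none fell, with a median of 0.07, and RPL12, the one with the smallest adjusted p, rose by 0.20. The count rested on single libraries, since it was 17 without sgPHF8-3 B, 19 without sgScr C and 62 without sgPHF8-3 C. The median of the list against the mean of sgScr was 0.11 and 0.08 in libraries A and B of sgPHF8-3 and 0.02 in library C. Of 41 genes of RNA polymerase I and ribosome biogenesis, 23 rose and none fell, for example POLR1E, a polymerase I subunit (0.27), and DDX21, a nucleolar helicase (0.17). MYC, which drives this program in many cells, rose from 45.5, 46.3 and 45.9 CPM to 53.4, 58.3 and 54.0 CPM (log2 fold change 0.27).

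Genes of a list of sterol synthesis and uptake, which also holds other lipid genes such as SCD and ABCA1, were lower. Of 29 tested, 16 fell and none rose, with a median of -0.11. SCD, which desaturates fatty acids, was at 414, 383 and 375 CPM in sgScr and at 287, 289 and 285 CPM in sgPHF8-3 (log2 fold change -0.45, SE 0.03, adjusted p = 3.9e-16). SREBF2, the master regulator of sterol synthesis, fell by 0.31, LSS, lanosterol synthase, by 0.29 and ABCA1, a cholesterol exporter, by 0.28. Of 24 NRF2 antioxidant genes, 9 rose and 1 fell, the fall being lost without sgPHF8-3 B, sgPHF8-3 C, sgScr B or sgScr C, with HMOX1, heme oxygenase, going from 16.5, 17.2 and 17.3 CPM to 27.1, 25.4 and 24.5 CPM (log2 fold change 0.59), and with FTL, ferritin light chain, and the quinone reductase NQO1 up by 0.32 and 0.30. Of 53 nuclear-encoded oxidative phosphorylation genes 10 were called, a share of 18.9% beside 23.7% over all genes, 6 as rises, which were 3 without sgScr B, and 4 as falls, which were 2 without sgPHF8-3 C or sgScr C. Of 30 contractile genes of the SRF type 11 fell and 1 rose, with 7 falls without sgScr B, 3 rises without sgPHF8-3 C and 2 rises without sgScr A. Of 33 genes of YAP, TAZ, TEAD and their targets 8 rose and 5 fell, with the TAZ gene WWTR1 lower (-0.39) and the targets CCN2 and ANKRD1 higher. Rises in this list were 5 without sgScr B or sgScr C, and falls were 3 without sgPHF8-3 A, sgScr B or sgScr C.

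The 2 PHF8 guides share their control libraries, so their changes against sgScr are given side by side, and whether they differ is taken from the direct contrast of sgPHF8-3 with sgPHF8-1. In that contrast, fitted on all 9 libraries, 885 of 14614 genes were higher with sgPHF8-3 and 747 were lower, shares of 6.06% and 5.11%. Without sgPHF8-3 B these counts were 588 and 434, without sgPHF8-3 C 444 were lower, and DESeq2 called 507 and 395. For comparison, sgPHF8-1 against sgScr gave 2215 rises and 2290 falls among 14372 genes, shares of 15.4% and 15.9%. TGFB1 had a log2 fold change of -0.79 with sgPHF8-3 and -0.63 with sgPHF8-1, and the difference of -0.16 was not called (adjusted p = 0.35). TGFBR1 was lower with sgPHF8-1 (143, 152 and 151 CPM) than with sgPHF8-3, a log2 difference of 0.41 (adjusted p = 4e-12). EDIL3 was at 16.2, 20.9 and 19.6 CPM with sgPHF8-1 and its difference of 0.05 was not called (adjusted p = 0.74).

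The mitosis list separated the guides. With sgPHF8-1, 5 of its 49 genes rose and 8 fell, with a median of 0.02, and in the direct contrast 23 genes were higher with sgPHF8-3 and none lower. CENPE was at 229, 224 and 223 CPM with sgPHF8-1, a log2 difference of 0.14 (adjusted p = 0.0033). For G1/S genes 18 of 50 were higher with sgPHF8-3 and 1 lower. The p53 targets separated them the other way. With sgPHF8-1 16 of 28 rose and none fell, with sgPHF8-3 6 of 27 rose and 5 fell, and 15 were lower with sgPHF8-3 in the direct contrast while 2 were higher. CDKN1A, the cyclin-dependent kinase inhibitor p21, was at 227, 234 and 235 CPM in sgScr, at 208, 202 and 195 CPM with sgPHF8-3 and at 283, 301 and 288 CPM with sgPHF8-1, so the 3 groups did not overlap. It fell with sgPHF8-3 (-0.20), rose with sgPHF8-1 (0.32) and differed between them by -0.53 (adjusted p = 5.8e-16). TP53INP1, a proapoptotic p53 target, fell by 0.37 with sgPHF8-3 and had a log2 fold change of 0.07 with sgPHF8-1 (difference -0.44, adjusted p = 4.9e-07). GADD45A, which is induced by DNA damage and also by ATF4, rose with both guides, by 0.55 and 0.40, and was higher with sgPHF8-3 in the direct contrast (0.15, adjusted p = 0.0024), against the direction of most p53 targets.

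In other lists the guides were compared member by member in the direct contrast. For MHC class II the list median was -0.55 against -0.88 with sgPHF8-1, and 10 of 12 genes were higher with sgPHF8-3 in the direct contrast, HLA-DRA by 0.37 (adjusted p = 8.6e-06). Of 78 ribosomal protein genes, 26 were lower than with sgPHF8-1 and none was higher. Of 40 lysosome genes, 14 were lower than with sgPHF8-1 and none was higher. The ATF4 list had medians of 0.21 and 0.25, and 3 of its 37 genes were higher and 5 lower with sgPHF8-3. The list of TGF-beta ligands, latency proteins and receptors had medians of -0.23 and -0.21, and only TGFBR1 differed. Among NF-kB genes 7 of 19 were higher with sgPHF8-3 and 1 lower. RELB, a noncanonical NF-kB subunit, rose with sgPHF8-3 (24.5, 23.7 and 23.1 CPM against 18.9, 18.6 and 18.6 CPM) and fell with sgPHF8-1 (13, 15.5 and 15.3 CPM), and BIRC3, an apoptosis inhibitor, was at 39.2, 39.4 and 39.2 CPM in sgScr, at 39.5, 37.9 and 38.9 CPM with sgPHF8-3 and at 26.8, 26.5 and 26.4 CPM with sgPHF8-1.

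**Figure D4:**
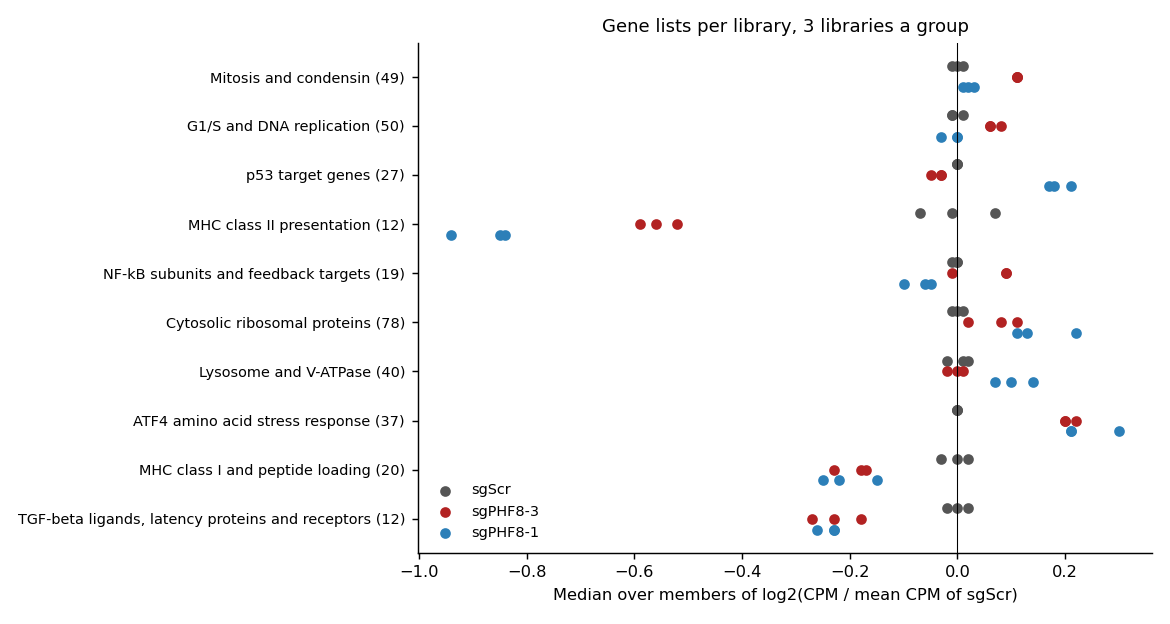
Median over the tested members of 10 gene lists of the log2 ratio of each library to the mean of sgScr, with 0.1 CPM added to each; each point is a library, and grey, red and blue mark sgScr, sgPHF8-3 and sgPHF8-1. The libraries of sgPHF8-3 and sgPHF8-1 do not overlap for mitosis, p53 targets or MHC class II, and they overlap for MHC class I and the TGF-beta ligands, latency proteins and receptors.

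Part of the difference between the guides followed genome position, a pattern looked for after PHF2, TRAF1 and LINC01505, all genes of the long arm of chromosome 9, were seen among the 10 genes highest in sgPHF8-3 relative to sgPHF8-1 at a mean of 5 CPM or more. On chromosome 9 beyond the PHF2 site of sgPHF8-1, towards the end of the long arm, 145 of 338 genes were higher with sgPHF8-3 and none was lower, with a median log2 difference of 0.16. On the other side of that site 24 of 254 were higher and 5 lower, with a median of 0.03. Against sgScr, the genes beyond the site had a median of 0.00 with sgPHF8-3, where 45 of 336 rose and 43 fell, and of -0.16 with sgPHF8-1, where 7 of 333 rose and 169 fell. In the direct contrast the medians of the other 22 chromosomes lay between -0.02 and 0.03. DNA copy number was not measured, and the cause of this step was not tested. Without these genes the direct contrast still held 740 genes higher and 747 lower with sgPHF8-3.

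The same split was made on chromosome X at the sgPHF8-3 site. Between the end of the short arm and the site, 31 of 182 genes fell and 6 rose with sgPHF8-3, with a median of -0.06, and on the other side 35 of 318 fell and 30 rose, with a median of -0.01. With sgPHF8-1, whose own PHF8 site is close by, the first segment had 43 falls and 10 rises among 188 genes and a median of -0.06. For sgPHF8-3, medians of whole chromosomes other than 9 ranged from -0.05 to 0.03, and chromosome 22, where no site of the guide with up to 3 mismatches was found, had a median of -0.05 with 55 falls and 28 rises among 332 genes. Of 13 genes tested from a list of neighbours of PHF8, 4 fell with sgPHF8-3 and none rose: FAM120C (-0.33), TRO (-0.30), MAGED2 (-0.15) and the cohesin subunit SMC1A (-0.12), whose call did not hold without sgPHF8-3 A or sgScr A. The cause of the lower values on this segment was not tested.

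**Figure D5:**
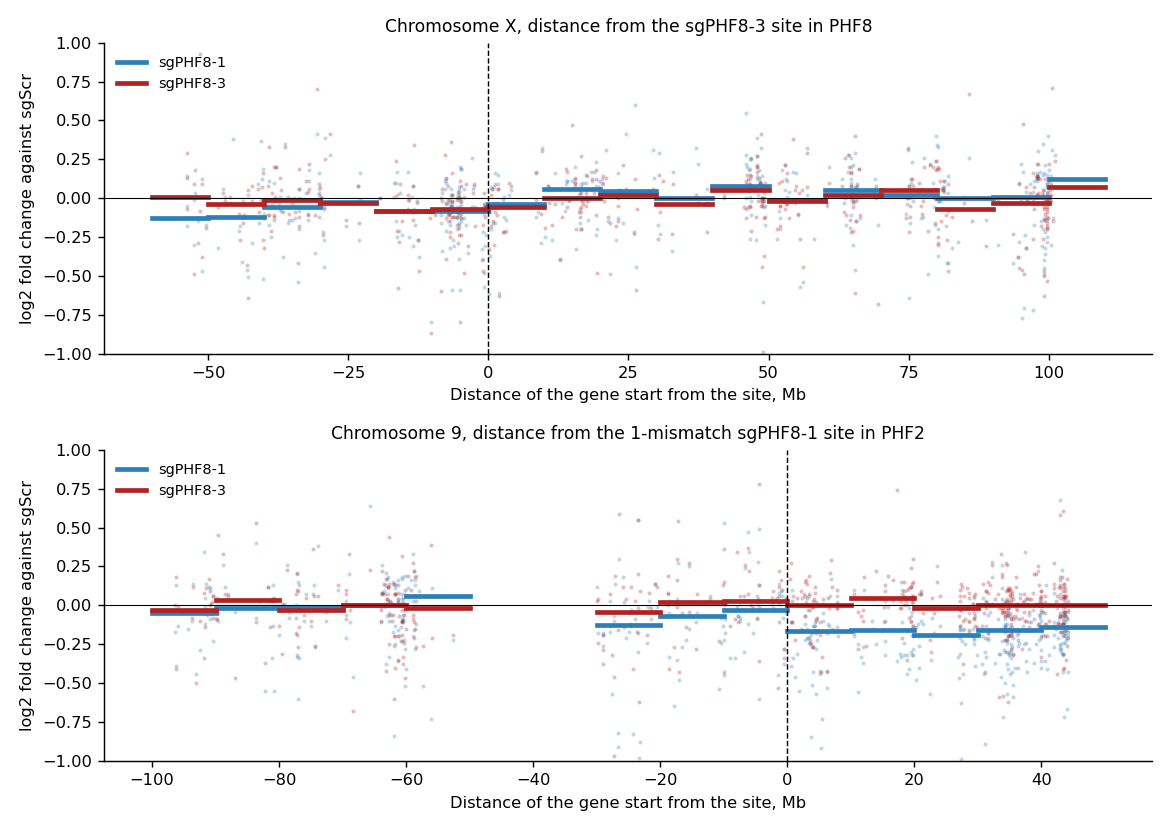
Log2 fold change against sgScr of each gene on chromosomes X and 9 by its distance in Mb from the guide site, for sgPHF8-3 (red) and sgPHF8-1 (blue); thick lines are medians over windows of 10 Mb with at least 5 genes, the dashed line is the site, and genes beyond 1 on either side of the vertical axis are not drawn (5 for sgPHF8-3 and 7 for sgPHF8-1). On chromosome 9 the blue medians step down at the site while the red medians stay near 0.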

How the data were processed

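RNA was sequenced after ribosomal RNA depletion from 9 SKMEL-147 libraries, 3 for each guide. The values used are raw read counts per gene as deposited by the authors, and their submitters' processing notes name bcl2fastq, STAR, Picard, HTSeq, DESeq2 and hg19. The annotation version and strand setting are not given in the sources used here. A second table of normalized values and mitochondrial-genome transcripts were not analysed here. Of 57736 gene IDs, 55501 matched a symbol table, and unmatched IDs held 3.12% of counts.

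Genes were filtered with filterByExpr, scaled by TMM and tested with edgeR 4.0.16 (R 4.3.3, quasi-likelihood, two-sided) on the 6 libraries of sgPHF8-3 and sgScr, with adjusted p below 0.05 as the threshold. The contrast of the 2 guides used all 9 libraries. DESeq2 1.42.0 was an alternative. The scripts were tested on simulated data. CPM used TMM-scaled library sizes. Library totals of 17366120 to 19838142 counts limit the precision of genes near 1 CPM.

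Named genes were PHF8 and its relatives, TGF-beta members, the 12 largest rises and falls at 5 CPM or more without overlap between groups, up to 4 called members per direction in each of 49 lists, and the 10 largest guide differences per direction. A few others, such as MKI67, HLA-DRB5, TAP2, NLRC5 and the chromosome segments, were chosen after their values were seen. Some genes that met the rule are not reported here. The comparison and the lists were chosen with earlier results of these data known.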

Additional observations from a re-analysis of the deposited data

Results flagged for a closer look

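The results below were picked because the effect of sgPHF8-3 differed from that of sgPHF8-1 in the direct contrast of the 2 guides (edgeR, adjusted p below 0.05). Of 284 named genes, 110 met this condition, and 23 are given here. The other 87 are not. All values are log2 differences of sgPHF8-3 from sgPHF8-1.

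PHF2 and 2 genes beyond its site lie on chromosome 9 and were higher with sgPHF8-3: PHF2 by 0.89, TRAF1, a TNF receptor adaptor, by 1.13, and the noncoding RNA LINC01505 by 0.78. PHF8 was lower with sgPHF8-3 by a difference of -0.48.

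DHRS2 was higher with sgPHF8-3 by 1.10, and its change with sgPHF8-1 against sgScr was not called (0.28, adjusted p = 0.27). FOSB was lower with sgPHF8-3 by a difference of -1.73, and its change with sgPHF8-1 was not called either (-0.42, adjusted p = 0.073). For SPP1 (-0.68), UCA1 (-0.67), ESM1, an endothelial proteoglycan (-0.86), and JDP2, an AP-1 repressor (-0.54), both guides gave a rise and that of sgPHF8-3 was the smaller. DMBT1, a secreted scavenger receptor, fell with both guides and less with sgPHF8-3 (0.56).

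Of 2297 genes called with both guides against sgScr, 28 were called in opposite directions. The direct contrast was called for all 28, which follows largely from choosing genes with opposite calls. These 28 include CDKN1A (-0.53), BTG2, an antiproliferative p53 target (-0.62), PLAT, tissue plasminogen activator (-0.30), and RELB (0.71).

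For the adrenergic receptor gene ADRA1B (0.77), the chloride channel gene ANO1 (0.61), BIRC3 (0.54), TMEM71 (0.54), the pseudogene MYH16 (-0.63) and the phosphatase gene ACP5 (-0.63), the change with sgPHF8-3 against sgScr was not called and that with sgPHF8-1 was. The call for TMEM71 was lost without sgPHF8-1 A. The ribosomal RNA pseudogenes RNA5-8SP6 (-0.65) and RNA5-8SP2 (-0.56) share sequence with other copies. Their calls were lost without any 1 of the 6 guide libraries and without sgPHF8-1 B, sgPHF8-3 B or sgPHF8-3 C, respectively.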

How the results depend on the processing

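Counts of called genes depended on the tool, the threshold and single libraries. Against 1715 rises and 1693 falls, DESeq2 called 848 and 896, adding a change above 0.25 on the log2 scale left 342 and 705, and DESeq2 with unadjusted p and that change gave 336 and 672. Between the guides DESeq2 called 507 higher and 395 lower, against 885 and 747. DESeq2 also called 12 rises of G1/S genes (main 22) and 10 falls of axon guidance genes (main 16), and with no filter on low counts G1/S rises were 12. Of the axon guidance falls 2 had no adjusted p in DESeq2. Of 81 list counts above 0, DESeq2 moved 26 by more than 1.5 times among genes given an adjusted p, all to lower counts. Falls with DESeq2 were 2 of 7 for interferon-stimulated genes, of which 1 had no adjusted p, 3 of 7 for ADAM and ADAMTS genes, 7 of 11 for SRF-type genes, 3 of 5 for p53 targets, 3 of 5 for the YAP list, 2 of 4 for NF-kB genes, 2 of 4 for SMADs and their regulators, 1 of 4 for oxidative phosphorylation and 1 of 2 for the plasminogen system. Rises were 2 of 6 for oxidative phosphorylation, 3 of 6 for lysosome genes, 3 of 5 for ADAM and ADAMTS genes, 1 of 3 for cytokines, 1 of 2 for interferon-stimulated genes and 0 of 2 for integrins. The single collagen, SMURF2 and SEMA3D rises, the NRF2 fall and the LUM fall were not called with DESeq2. Leaving out 1 library gave 1129 to 1687 rises, lowest without sgPHF8-3 B, and 1295 to 1717 falls. Between the guides it gave 588 to 888 higher, lowest without sgPHF8-3 B, and 434 to 735 lower, with 434 without sgPHF8-3 B and 444 without sgPHF8-3 C. G1/S rises ranged from 13 to 19, ribosomal protein rises from 17 to 62, and axon guidance falls from 11 to 16. Each fit with 1 library left out held fewer libraries, and the cause of these changes was not tested.

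PHF8 stayed between -0.68 and -0.60 and PHF2 between -0.07 and -0.01 with any 1 library left out. Counts for both MHC lists, ATF4, synthetase, mitosis, cholesterol and TGF-beta ligand lists stayed within 1.5 times of the main count under every alternative run. None of the results of single named genes reversed under any alternative, and 207 of 2886 single-gene values lost their call, 45 of them with DESeq2. The letters of the libraries were not taken to pair the samples: deviations of same-letter libraries correlated at -0.05, -0.03 and -0.00 between sgPHF8-3 and sgScr, and at -0.11, -0.07 and 0.07 between sgPHF8-3 and sgPHF8-1. With the letter as a replicate block, 1572 genes rose and 1572 fell, 3126 of these 3144 also called without the block, and the guides differed for 875 genes higher and 726 lower. Leaving out chromosome 9 beyond the PHF2 site, chosen after seeing the data, gave 740 higher and 747 lower.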

Other observations

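Some groups not described above also held called genes. Among 28 AP-1 and ERK feedback genes 10 fell and 5 rose with sgPHF8-3, with FOSB and FOS the largest falls, and 2 rose without sgPHF8-3 B or with DESeq2. Of 33 receptor tyrosine kinases and EGF family ligands 9 rose and 7 fell: the fibroblast growth factor FGF1 rose by 0.57, and ERBB3, a receptor for neuregulins, fell by 1.04 on the log2 scale. Of 28 WNT pathway genes 8 fell and 1 rose, the secreted inhibitor DKK1 (0.31), and DESeq2 called 5 of the falls. Of 19 genes of the BMP and activin pathway 2 rose, FST, which binds activin (0.61), and INHBA, the activin A subunit (0.41), and 3 fell. Of 34 glycolysis and hypoxia genes 10 fell and 5 rose, with 6 falls without sgPHF8-3 B and 3 rises without sgScr A. Of 21 methyltransferases of H3K9, H4K20 and H3K4, marks that PHF8 binds or removes, 3 fell and 2 rose, a share of 23.8% beside 23.7% over all genes, and the falls were 1 without sgPHF8-3 A, sgScr B or sgScr C and 6 without sgPHF8-3 C, and DESeq2 called 0 of the 3.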
